A study of Arabidopsis thaliana with 6 samples.

Results

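The RNAs described here are the long intergenic noncoding RNA (lincRNA) units of the arms of Arabidopsis chromosome 2. They were chosen by position: probes whose transcript name marks a transcription unit of chromosome 2 were taken, and units whose start lies more than 3 Mb from a point at 4 Mb were kept. A start coordinate stands in the name of 72 of them, and the others were placed by linear interpolation on the unit number between known starts. This gave 664 units, carrying 1938 probes, of 5154 transcript names on the array. The first 53 units lie at the short-arm end and the other 611 on the long arm. Another 242 units of chromosome 2 lie within the limit, and 2 units were left out by name. The rule itself uses position and name and no measured value. Coordinates are those of the probe annotation. Their genome build is not stated there, so no gene annotation was joined to them.

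The arrays compared an rdr2 mutant group of 3 samples with a wild-type (WT) group of 3 samples, stated to be biological replicates. All 6 samples were inflorescences of 4-week-old plants of the Col-0 ecotype, taken with open flowers, buds and very young siliques. The protocols and design text name the allele rdr2-1, a T-DNA insertion allele, while a genotype field reads rdr2-1, rdr2-2 and rdr2-3 for the 3 mutant samples, whose titles give no allele. They were treated as 1 group, as titled. The WT group is Col-0 with no transgene stated. Plants grew on MS medium or in a greenhouse, and which sample came from which is not given. For each sample, 0.5 µg of RNA was labelled with Cy3 and hybridised to a custom Agilent array. The title asks which lincRNAs RDR2 regulates.

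RDR2 (RNA-DEPENDENT RNA POLYMERASE 2) copies the transcripts of RNA polymerase IV into double-stranded RNA, which DCL3 cuts into small interfering RNAs. Loaded on AGO4-clade proteins, these RNAs pair with transcripts of RNA polymerase V and bring the DNA methyltransferase DRM2 to the locus, a route called RNA-directed DNA methylation. The pathway is best known for silencing transposons and repeats, and in chromosome arms it acts mostly on short transposon remnants near genes. The tip of the short arm of chromosome 2 carries a nucleolus organiser region, an array of ribosomal RNA genes.

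RDR2 itself had scaled signals of 61.4, 62.0 and 66.4 on the rdr2 arrays, against 395, 381 and 454 on the WT arrays. Scaled signal is the spot intensity as a percentage of its array's 75th percentile, and values are given in the order of replicates 1 to 3. The groups did not overlap, and RDR2 was lower in rdr2, at -2.69 on the log2 scale (SE 0.125, limma adjusted p = 0.000168). Its 3 probes gave -2.73 to -2.63. The place of these probes relative to the insertion is not stated in the labels. Of a list of 19 genes of RNA-directed DNA methylation, 4 had probes. Besides RDR2, NRPD1, which encodes the largest subunit of RNA polymerase IV, had 329, 321 and 317 in rdr2, against 158, 160 and 160 in WT. It was higher by 1.02 (SE 0.104, adjusted p = 0.00414, and 0.0354 with slide as a block), and its 3 probes gave 0.90 to 1.15. NRPE1, which encodes the equivalent RNA polymerase V subunit, and DCL3 gave -0.32 and -0.38 by the probe with the smallest p and did not pass (adjusted p = 0.142 and 0.105). The 3 probes of NRPE1 ranged from -0.32 to 0.69 and so differed in sign, and those of DCL3 gave -0.40 to -0.24. None of the 24 listed marker genes of flower, anther, leaf and root had a probe, so the tissue label could not be set against markers.

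The arm units were dim on every array, and the arrays differed in how many could be measured. In rdr2, 186, 194 and 331 of the 1938 arm probes were well above background, or 9.60%, 10.01% and 17.1%. In WT the numbers were 605, 603 and 303, or 31.2%, 31.1% and 15.6%. WT replicate 3 therefore stood below rdr2 replicate 3 and far from the other WT arrays. Over the arm probes that were tested, the median scaled signal was 5.30, 5.36 and 4.999 in rdr2 and 9.08, 8.29 and 4.75 in WT, so WT replicate 3 was again outside its own group, below every rdr2 array. Over all probes of an array, 17.6% to 24.8% were well above background in rdr2 and 24.1% to 37.9% in WT. The 75th percentile used for scaling was not taken over all probes but over the 2369 that every array measured. Its intensity was 155 to 285 in rdr2 and 305 to 371 in WT.

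**Figure D1:**
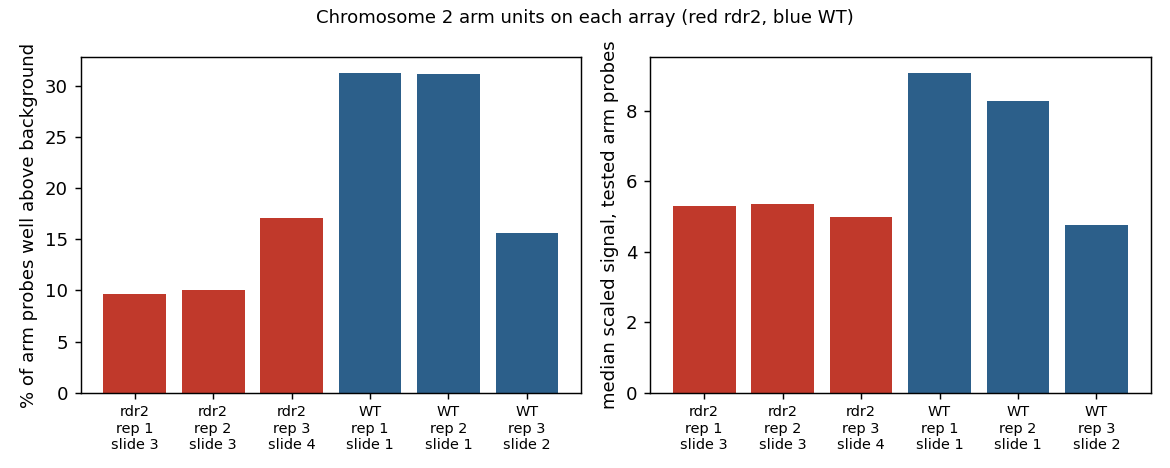
Each bar is 1 array, rdr2 in red and WT in blue, with its slide named under it. The left axis is the percentage of the 1938 arm probes well above background and the right axis the median scaled signal of the 272 tested arm probes (75th percentile = 100); WT replicate 3 sits at 15.6% and 4.75, apart from WT replicates 1 and 2.

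The arrays were grouped by slide as well. The first 2 rdr2 samples shared a slide and the first 2 WT samples shared another, while replicate 3 of each group lay on a slide of its own, and no slide held both groups. Across the 159 arm probes well above background on all 6 arrays, which share arrays and are not replicates, the arrays on 1 slide had an r of 0.996 in rdr2 and 0.995 in WT. Arrays of 1 group on different slides correlated at 0.974 to 0.976. WT replicate 3 correlated at 0.973 to 0.978 with the rdr2 arrays, as high as with its own group. Slide and group can thus be told apart only in part, through the single pair of slides in each group. The calls were therefore counted again with slide as a random block.

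Most arm units could not be compared. Probes were tested where all 3 arrays of at least 1 group were well above background, which left 272 arm probes (14.0%) for 187 units (28.2%). The other 477 units had no tested probe, and 183 units were above background on no array at all. All 3 rdr2 arrays measured 108 units, and all 3 WT arrays measured 185. A single tested probe stood for 131 units, 2 probes for 27 and 3 probes for 29.

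Of the 187 tested arm units 25 passed the test, at shares near or below those over the whole array, given below. A unit without a call is not shown to be unchanged. The median log2 fold change of the 272 arm probes, rdr2 over WT, was -0.39, against -0.26 over all 3345 tested probes, -0.23 over the units within 3 Mb of 4 Mb and -0.37 over the units of the other chromosomes. Against WT replicates 1 and 2 the arm median was -0.53, and against WT replicate 3 it was -0.02. WT replicate 3 was the lowest WT array on 197 of the 272 probes and lay nearer to the rdr2 mean than to the other WT arrays on 163. A probe could enter the test through 1 group alone, and more arm units were measured on all WT arrays than on all rdr2 arrays. Over probes well above background on all 6 arrays, the median was -0.07 for 159 arm probes and -0.13 for all 2369. The arm median was then the less negative. In whole inflorescences, fewer cells of a type and less RNA per cell cannot be told apart.

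At an adjusted p of 0.05, taken over all tested probes, 9 arm probes (3.31%) were higher in rdr2 and 20 (7.35%) were lower. Over all tested probes 5.11% were higher and 8.49% lower, so both shares of the arm probes lay near or below the background. Taken by unit, on the probe with the smallest p, 7 units were higher and 18 were lower of 187, against 5.85% higher and 10.7% lower over all 1862 tested transcripts. A unit with more tested probes has more chances of a call. The 187 units had 272 tested probes and the 1862 transcripts 3345, so these shares are not fully alike. In the units within 3 Mb of 4 Mb, 9 of 106 probes were higher and 6 lower, and in the units of the other chromosomes 91 and 127 of 1585. The difference between these sets was not tested. Groups that did not overlap were found on 21 arm probes in the higher direction (7.72%, background 12.2%) and on 58 in the lower direction (21.3%, background 26.6%).

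None of these arm calls held with slide as a random block in limma, where 0 of 272 arm probes passed against 3.35% of all probes. In that fit 8 arm probes were higher and 21 lower at an unadjusted p under 0.05, and the smallest adjusted p among them was 0.0538. The 25 called units had adjusted p of 0.0538 to 0.378 in that fit, so none of the calls given for single units holds with slide as a block. With arrays that shared a slide averaged first, 0 passed as well, with 11 higher and 22 lower at an unadjusted p under 0.05. Each array also carried weight. Without WT replicate 3, 234 units were lower and 6 higher, in a comparison where all remaining WT arrays share 1 slide. In that fit 486 arm probes were tested, 268 of them lower, and over all probes 2053 of 4799 were lower, so the shift was not that of the arm units alone. Leaving out WT replicate 1 gave 3 higher and 3 lower units, and leaving out WT replicate 2 gave 4 and 2. Leaving out rdr2 replicate 1 gave 2 and 4, rdr2 replicate 2 gave 3 and 3, and rdr2 replicate 3 gave 14 and 25. The split between the directions moved with the scaling: 7 arm probes were higher and 1 lower with the percentile taken over all probes, and 11 and 7 with quantile normalization. Background correction by normexp gave 3 and 0, or 13 and 8 when quantile normalization followed it. Normexp adds an offset of 50 to every signal, which draws the changes of dim probes toward 0. The median of all probes stood at 0.35 with the percentile over all probes and at -0.02 with quantile normalization, in place of -0.26. Relative to the median probe, the 7 units that were higher lay at 0.79 to 2.47 and the 18 that were lower at -2.31 to -0.34.

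**Figure D2:**
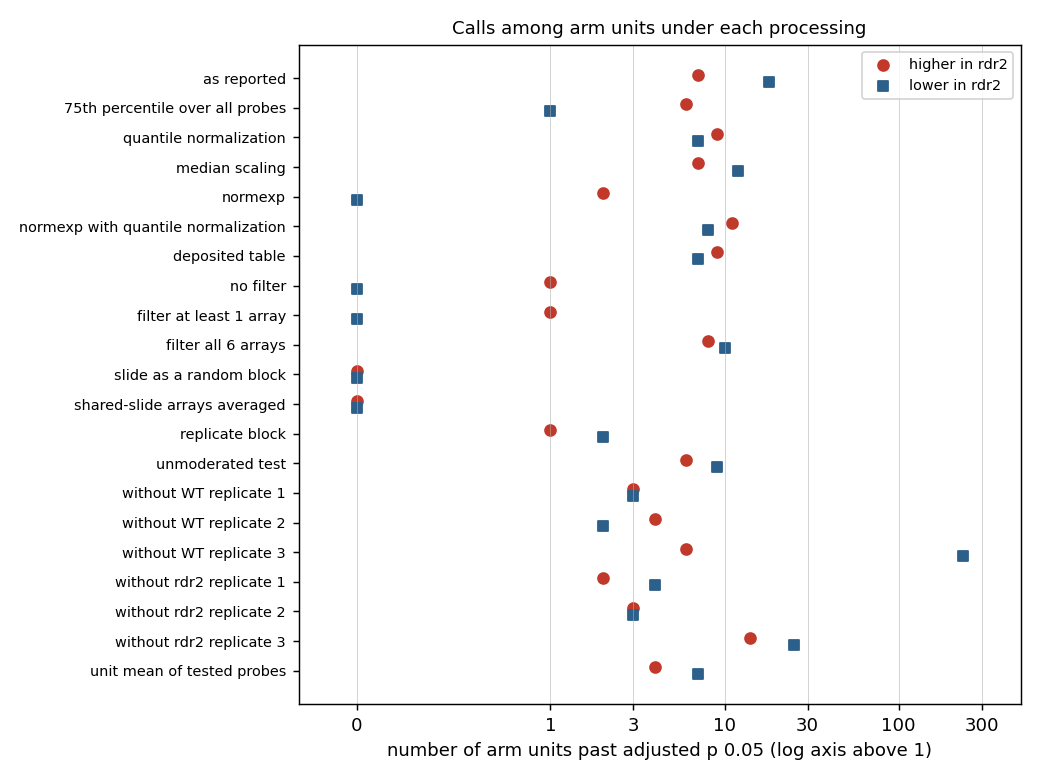
Number of arm units past adjusted p 0.05 under each way of processing (horizontal axis, logarithmic above 1), higher in rdr2 as red circles and lower as blue squares. The reported processing gave 7 and 18; slide as a random block and averaging of shared-slide arrays gave 0 and 0, and leaving out WT replicate 3 gave 6 and 234.

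Of the 7 units that rose, AT2TU052200 had the largest change and lay near background. It lies on the long arm, between units with starts at 15155370 and 15821693. Its tested probe had 4.32, 4.96 and 6.15 in rdr2, against 1.65, 0.614 and 1.30 in WT. All 3 rdr2 arrays were well above background and no WT array was, so the groups were fully separated and only a bound can be given. The bound sets the mean of the bright group against a floor on each dim array, which is the dimmest signal that counted as well above background there, or the probe's own signal where that was brighter. Signals above the dimmest one did not always count. On rdr2 replicate 1, AT2TU043770 had 4.46 and did not count, while the dimmest tested arm probe that did had 2.72. A fold given as at least so large is therefore set by this floor and is no proven minimum. AT2TU052200 was at least 3.35-fold higher in rdr2 (fitted log2 fold change 2.21, SE 0.395, adjusted p = 0.0217, and 0.298 with slide as a block). Bounds are those of the reported processing, and with normexp the unit gave 0.39 and did not pass (adjusted p = 0.979). Its other probes were above background on no array.

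AT2TU000010, the first unit of the chromosome, rose at a high level. It lies before the first known start, at 72281. Its probe with the smallest p had 8999, 8683 and 7962 in rdr2, against 4376, 3504 and 3912 in WT, with a wide gap between the groups. On the log2 scale it was higher by 1.12 (SE 0.136, adjusted p = 0.00665, and 0.0908 with slide as a block). The probe next in p had 8710, 9094 and 6517 in rdr2 and 3884, 3590 and 3510 in WT, a change of 1.13 (adjusted p = 0.0118). On the remaining probe the groups overlapped, with 5873, 9788 and 5219 in rdr2 and 5453, 4714 and 3615 in WT (0.56, adjusted p = 0.230). Its neighbour AT2TU000020 was among the brightest probes of the array and did not pass. On its probe with the smallest p it had 116539, 128705 and 48203 in rdr2, against 70506, 60782 and 64051 in WT. Here 2 rdr2 arrays, those of the shared slide, stood above all WT arrays, and rdr2 replicate 3 stood below them (0.47, SE 0.394, adjusted p = 0.433). Whether the probes of these units match other copies in the genome was not examined, since no probe sequences were used here.

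AT2TU064150, with a start at 18724176 near the end of the long arm, had 379, 394 and 393 in rdr2, against 181, 160 and 199 in WT. The rdr2 arrays lay close together and well above WT. The log2 fold change was 1.12 (SE 0.129) with the smallest adjusted p of the arm units, 0.0059, and 0.0538 with slide as a block. The other probes of the unit were at background on all arrays. AT2TU034770, with a start at 10470117, had 56.1, 57.9 and 67.1 in rdr2, against 29.5, 37.9 and 31.1 in WT. That probe was higher by 0.88 (SE 0.154, adjusted p = 0.0204) with no overlap. Another tested probe of the same unit had 119, 131 and 67.2 in rdr2, against 97.8, 104 and 100.2 in WT, and gave 0.01, so its probes differed.

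The remaining rises were smaller. AT2TU035130 had 22.5, 17.6 and 22.5 in rdr2, against 11.3, 12.4 and 14.4 in WT (0.72, SE 0.167, adjusted p = 0.0446). AT2TU001810, on the short arm between the starts 372308 and 1125173, had 25.9, 29.3 and 23.8 in rdr2, against 16.6, 16.98 and 16.4 in WT (0.66, SE 0.126, adjusted p = 0.0270). In both units the arrays of the groups were separate, and no other probe was tested. AT2TU063000, on the long arm, had 29.8, 27.0 and 26.6 in rdr2, against 20.3, 19.3 and 18.1 in WT (0.54, SE 0.119, adjusted p = 0.0402). All 3 of its probes were measured, gave 0.54, 0.57 and 0.61, and separated the groups, although only 1 passed the test.

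**Figure D3:**
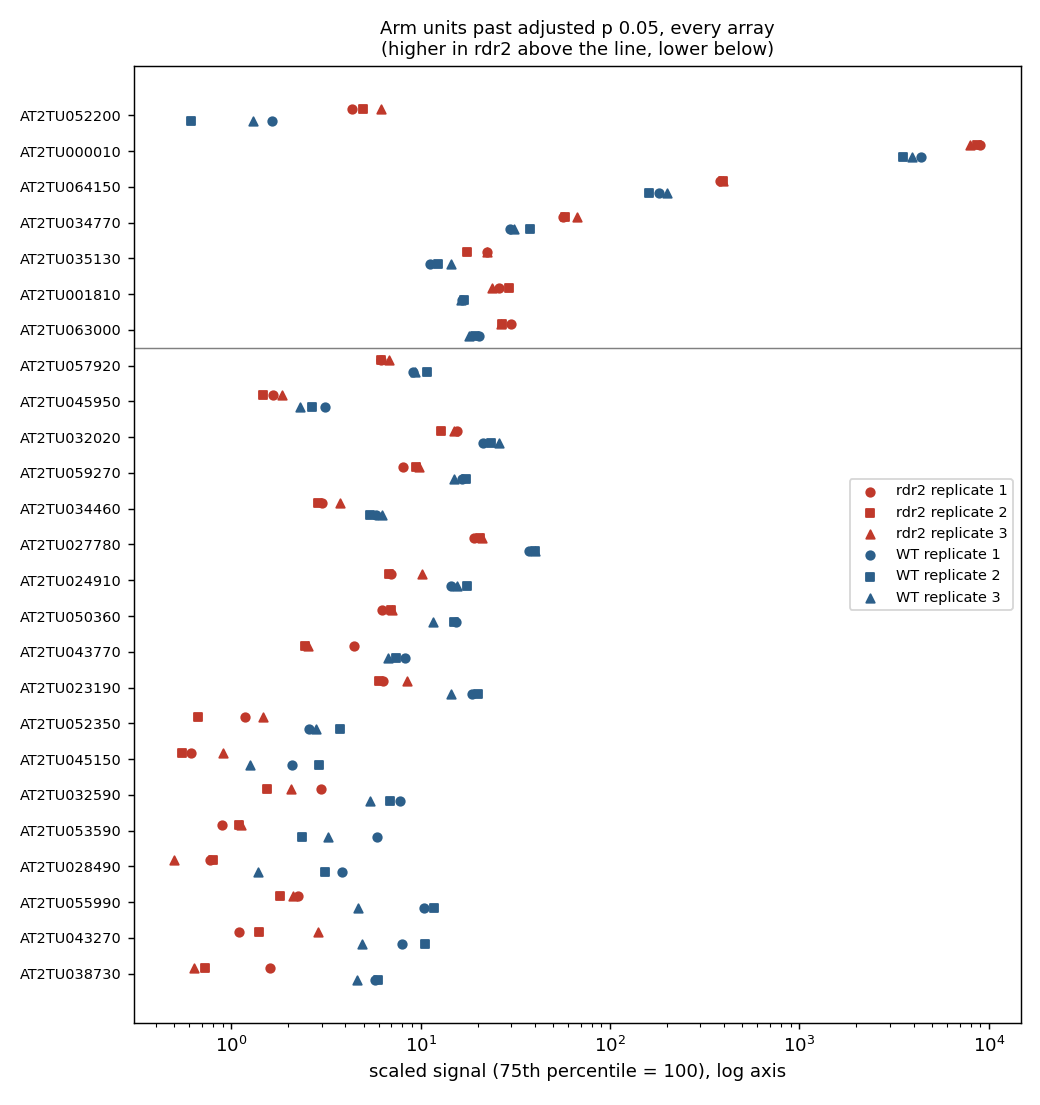
Scaled signal on every array (log axis, 75th percentile = 100) of the 25 arm units past adjusted p 0.05, by the probe with the smallest p, rdr2 in red and WT in blue, with the shape giving the replicate. The 7 units above the line are higher in rdr2 and the 18 below it lower; in all 25 the 3 rdr2 arrays are separate from the 3 WT arrays, and 7 of the lower units were well above background on no rdr2 array.

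The units that fell were dim. Of the 18, 7 were above background on no rdr2 array, 8 on all 6 arrays and 3 in between. The largest fitted fall was that of AT2TU038730, on the long arm between the starts 10792069 and 11889476. It had 1.61, 0.728 and 0.635 in rdr2, against 5.72, 5.95 and 4.59 in WT. Every WT array measured it and no rdr2 array did. It was at least 2.59-fold lower in rdr2 (fitted log2 fold change -2.57, SE 0.378, adjusted p = 0.0116, and 0.155 with slide as a block), and its other probes were not tested. With normexp the unit gave -0.02 and did not pass (adjusted p = 0.987).

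AT2TU043270, between the starts 12792629 and 12893508, had 1.104, 1.40 and 2.89 in rdr2, against 7.93, 10.5 and 4.93 in WT. Only 1 rdr2 array was above background, and WT replicate 3 was the lowest WT array (-2.18, SE 0.452, adjusted p = 0.0337). AT2TU055990, between 16160107 and 16489713, had 2.25, 1.81 and 2.13 in rdr2, against 10.4, 11.8 and 4.68 in WT. It was at least 3.402-fold lower in rdr2, the largest bound among the arm units measured in WT alone (fitted -2.02, SE 0.373, adjusted p = 0.0240). Here too WT replicate 3 lay well below the other WT arrays while staying above all rdr2 arrays. With normexp AT2TU043270 gave -0.04 and AT2TU055990 gave -0.13, and neither passed.

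AT2TU032590, between 9819621 and 9932686, was called on both of its tested probes. The probe with the smallest p had 2.98, 1.54 and 2.07 in rdr2, against 7.81, 6.86 and 5.38 in WT (-1.64, SE 0.286, adjusted p = 0.0204). The other had 0.653, 0.687 and 1.40 in rdr2, against 5.60, 4.78 and 2.30 in WT, and was at least 1.86-fold lower (fitted -2.21, adjusted p = 0.0337). Neither probe had overlapping groups. AT2TU023190, between 7049769 and 7238969, likewise fell on both tested probes. They had 6.30, 6.01 and 8.52 in rdr2, against 18.7, 20.1 and 14.5 in WT, and 4.94, 1.71 and 4.45 in rdr2, against 13.7, 12.4 and 11.1 in WT. The changes were -1.36 (SE 0.205, adjusted p = 0.0128) and -1.88 (adjusted p = 0.0421), and with slide as a block the first had an adjusted p of 0.0658. These were the only units, of the 15 called units with more than 1 tested probe, in which all tested probes passed. In 12 of the 15 all tested probes had the same sign, and the other 10 called units rested on a single tested probe.

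A group of falls was measured in WT near the limit of detection. AT2TU053590, with a start at 15821693, had 0.896, 1.102 and 1.13 in rdr2, against 5.85, 2.35 and 3.24 in WT, and was at least 1.71-fold lower. AT2TU028490 had 0.771, 0.801 and 0.500 in rdr2, against 3.84, 3.12 and 1.39 in WT, and was at least 1.23-fold lower. AT2TU052350 had 1.19, 0.667 and 1.46 in rdr2, against 2.56, 3.76 and 2.79 in WT, and was at least 1.39-fold lower. The groups were separate in each, and no rdr2 array was above background. The fitted changes were -1.77, -1.92 and -1.51 (adjusted p = 0.0291, 0.0410 and 0.0396). Brighter probes of AT2TU052350 gave -0.70 and -0.13 with overlapping groups and did not pass. AT2TU045150 had 0.610, 0.549 and 0.910 in rdr2, against 2.09, 2.91 and 1.26 in WT (fitted -1.55, adjusted p = 0.0449), and its WT signals were too close to the limit of detection to give a fold bound. With normexp these 4 units had the opposite sign, at 0.14, 0.078, 0.10 and 0.17 in the order given. AT2TU043770 had 4.46, 2.46 and 2.55 in rdr2, against 8.28, 7.45 and 6.76 in WT, and was at least 2.40-fold lower (fitted -1.30, adjusted p = 0.0317). Its other tested probe, measured on all arrays, had 7.88, 7.66 and 7.68 in rdr2, against 20.7, 22.4 and 8.97 in WT, and did not pass (-1.06, adjusted p = 0.114). On that probe WT replicate 3 was much nearer to rdr2 than to the other WT arrays.

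The falls of units measured on all 6 arrays were more moderate. AT2TU027780, between the starts 8323892 and 8656247, had 19.0, 20.5 and 21.0 in rdr2, against 37.4, 40.2 and 40.0 in WT. Both groups were tight, WT replicate 3 included, and the change was -0.96 (SE 0.113, adjusted p = 0.00607, and 0.0602 with slide as a block). The other probes of the unit gave -0.53 and -1.004 with separate groups and did not pass. AT2TU050360, between 14782260 and 15057829, had 6.26, 7.001 and 7.04 in rdr2, against 15.4, 14.97 and 11.6 in WT (-1.04, SE 0.156, adjusted p = 0.0125). Its brighter probe had 18.7, 15.1 and 13.2 in rdr2, against 70.5, 59.6 and 23.0 in WT, where WT replicate 3 stood far below the other WT arrays, and did not pass (-1.56, adjusted p = 0.0763). AT2TU024910 had 6.96, 6.83 and 10.2 in rdr2, against 14.5, 17.5 and 15.6 in WT (-1.01, SE 0.199, adjusted p = 0.0291). AT2TU059270 had 8.07, 9.51 and 9.86 in rdr2, against 16.6, 17.3 and 15.04 in WT (-0.84, SE 0.137, adjusted p = 0.0168). In both, the groups were separate on every tested probe and the other tested probes were lower by less. The 3 falls outside the 15 largest were of -0.71 to -0.60, and 1 of them, AT2TU045950, was above background on only 1 rdr2 array. In 2 of them another tested probe showed almost no change. The brightest probe of AT2TU032020 gave 0.07 (adjusted p = 0.835), and a probe of AT2TU045950 gave 0.01 (adjusted p = 0.982). The remaining tested probes of these units gave -0.88 and -1.68 and did not pass.

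AT2TU034460, with a start at 10373127, was the sole arm unit with probes called in opposite directions. Its brightest probe had 121, 120 and 185 in rdr2, against 57.6, 52.1 and 81.5 in WT, a rise of 1.15 (SE 0.260, adjusted p = 0.0415). Another had 3.01, 2.86 and 3.73 in rdr2, against 5.79, 5.41 and 6.25 in WT, a fall of -0.87 (SE 0.151, adjusted p = 0.0204). Neither overlapped. The remaining probe gave -0.65 with overlapping groups. The unit counts among the falls because the probe that fell had the smaller p, although with normexp that probe gave 0.11. Disagreement between probes of a unit was common: of 56 units with more than 1 tested probe, 34 had the same sign on all and 22 had both signs.

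The brightest arm units were mostly without a called difference. Besides AT2TU000010 and AT2TU000020, the units with the highest scaled signals in WT were AT2TU036480, AT2TU032980, AT2TU034760 and AT2TU058930. Brightness also depends on the probe, so this is no order of abundance. Values of these units are first those of the brightest probe. AT2TU036480 had 8259, 7678 and 7589 in rdr2, against 6406, 6066 and 8277 in WT (0.19, adjusted p = 0.418), and AT2TU032980 had 2250, 2052 and 1954 in rdr2, against 2644, 2493 and 2211 in WT (-0.23, adjusted p = 0.264). Their groups overlapped. A dim probe of AT2TU032980, above background on 1 rdr2 array, had the smallest p of that unit and also overlapped (-1.23, adjusted p = 0.232). The other probes of AT2TU036480 were above background on no array and were not tested. Their mean scaled signals were 0.71 and 0.53 in rdr2, against 0.31 and 0.33 in WT. AT2TU034760 had 1225, 1232 and 1312 in rdr2, against 1619, 1550 and 1604 in WT. These arrays were separate, yet the change of -0.34 (SE 0.107) did not pass at an adjusted p of 0.0919. Its other probes gave -0.24 and 1.17, with overlap and adjusted p = 0.323 and 0.328. AT2TU058930 had 1194, 1402 and 1053 in rdr2, against 1113, 1120 and 1050.0 in WT, with overlap (0.14, adjusted p = 0.517). Its probe with the smallest p had 861, 972 and 739 in rdr2, against 631, 538 and 634 in WT. There the groups were separate, and the change of 0.51 (SE 0.155) did not pass at an adjusted p of 0.0868.

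Among the 162 tested units without a call, 119 had a log2 fold change between -1 and 1, 41 were at or below -1 and 2 at or above 1. The largest fitted change among them was that of AT2TU049970, with 0.529, 1.01 and 2.84 in rdr2, against 10.1, 9.35 and 1.31 in WT. WT replicate 3 was below 1 of the rdr2 arrays there, while WT replicates 1 and 2 were several times higher (-2.12, SE 1.01, adjusted p = 0.202). AT2TU041660 had 1.01, 0.895 and 1.16 in rdr2, against 5.98, 5.78 and 1.42 in WT, with separate groups and the same low WT array. No rdr2 array measured it above background, so only a bound set by the floor can be given, 1.76-fold lower, and the unit did not pass (adjusted p = 0.0947). On the other side AT2TU062680 had 6.83, 14.1 and 3.04 in rdr2, against 3.48, 1.55 and 2.31 in WT (1.52, adjusted p = 0.151), with a wide spread in rdr2. These 3 units were chosen after their values were seen, as were AT2TU045950 and AT2TU032020 among the smaller falls.

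Presence on all arrays of 1 group and none of the other was rarer in the rdr2 direction. Well above background on all 3 WT and no rdr2 arrays were 30 arm probes of 30 units (11.03%, background 6.91%), and the reverse held for 1 probe, that of AT2TU052200 (0.368%, background 0.538%). The WT-only share was thus not particular to the arm units. It was 13.2% in the units within 3 Mb of 4 Mb and 10.4% in those of the other chromosomes, with 1.89% and 0.694% for the reverse. WT replicates 1 and 2 were also the arrays with the most arm probes above background. Of the 30 probes, 8 passed the test, against 59 of the 231 such probes over the whole array. Groups were separate on 15 of the 30, where 26.6% of all tested probes were separate in the lower direction. The 30 probes were chosen by the same values that show their fall, so neither count is separate support for it. A bound above 1 could be given for 27 of the 30, with a median of 1.39-fold and a highest value of 3.402-fold, that of AT2TU055990. WT replicate 3 was the lowest WT array on 28 of the 30, and lay nearer to the rdr2 mean on 21. For the 18 called falls, WT replicate 3 was nearer to the rdr2 mean in 3, and for the 7 called rises in 0. A call needs the WT arrays to lie together, so these low counts follow from the selection and give the calls no separate support. The part of the arrays' unequal detection in the shares above was not tested.

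The calls were counted by signal level, with no test between levels. Of the 44 tested arm probes with a mean scaled signal up to 3, 0 were higher and 6 lower. Between 3 and 10, 1 of 141 was higher and 8 were lower, and between 10 and 100, 4 of 62 were higher and 6 lower. Above 100, 4 of 25 were higher and 0 lower. Over all tested probes the shares in these classes were 1.43%, 3.23%, 5.57% and 10.6% higher and 12.1%, 6.05%, 9.25% and 9.44% lower. The median change of the arm probes was -0.92, -0.46, -0.17 and 0.19 from the dimmest class to the brightest, against -0.75, -0.39, -0.15 and -0.07 over all probes. A probe could enter the test through 1 group alone, and 30 arm probes were above background in WT alone, against 1 in rdr2 alone. The medians of the dim classes, for arm and for all probes, are therefore not free of that filter. The dim probes also varied more between replicates: the median SD on the log2 scale was 0.60 in both groups in the dimmest class, and 0.22 in rdr2 and 0.11 in WT in the brightest.

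**Figure D4:**
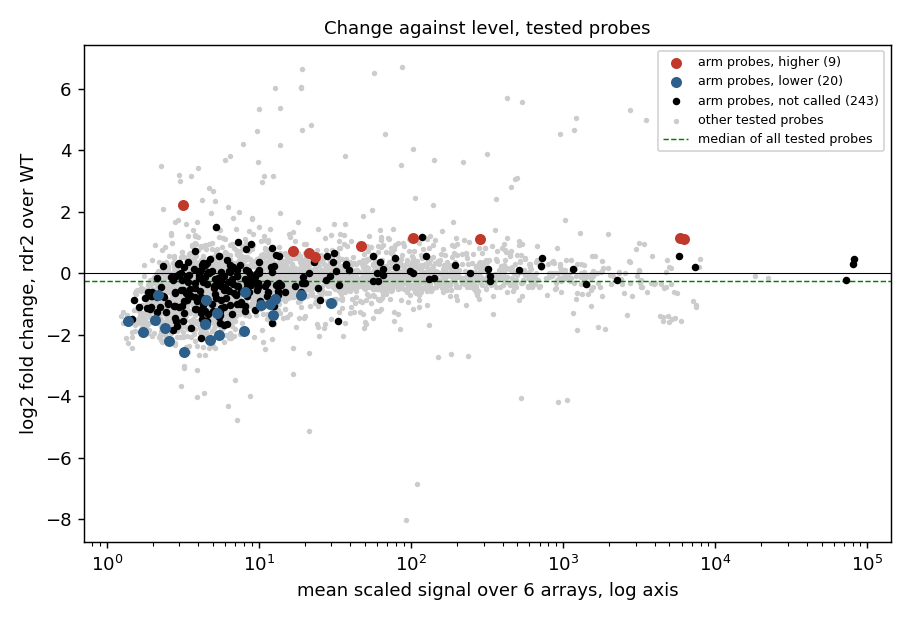
Each point is a tested probe, with its mean scaled signal over 6 arrays on the horizontal log axis and its log2 fold change, rdr2 over WT, on the vertical axis; arm probes are large (9 higher in red, 20 lower in blue, 243 not called in black) and all other tested probes grey. Of the 20 lower arm probes 6 have a scaled signal up to 3, 8 lie between 3 and 10 and 6 between 10 and 100, and 4 of the 9 higher ones lie above 100; the dashed line is the median of all tested probes, at -0.26.

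Along the chromosome the called units were scattered. In the first 1 Mb, at the short-arm end, 21 of 53 units were tested, and 2 rose and 0 fell. On the long arm, from 7 to 9 Mb 24 of 80 were tested with 0 higher and 4 lower, and from 9 to 11 Mb 32 of 104 with 2 and 3. From 11 to 13 Mb 19 of 108 were tested, the lowest share at 17.6%, with 0 higher and 3 lower. The median change there was the most negative of the bins, at -1.02 on 22 probes. In the other long-arm bins it was -0.60 to -0.24. The bins from 13 to 15 Mb and from 15 to 17 Mb had 0 and 1 higher and 3 and 4 lower, of 25 and 26 tested units. Beyond 17 Mb 40 of 135 were tested, with 2 higher and 1 lower. Over the whole short-arm end the median change was -0.10 on 36 probes, and over the long arm -0.42 on 236. No test between bins or arms was run.

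No called units had consecutive unit numbers. The nearest pair in array order was AT2TU052200, which rose, and AT2TU052350, which fell, with no unit of the array between them. AT2TU032020 and AT2TU032590, both lower, were 4 steps apart, and AT2TU034460, AT2TU034770 and AT2TU035130 followed each other at 8 steps, the first called in both directions and the others higher. At the limit of the arms, AT2TU022540 lay just inside, at about 7.03 Mb, and did not pass (-0.76, adjusted p = 0.152). AT2TU022300 lay just outside, at about 6.97 Mb, and did not pass either (-0.25, adjusted p = 0.338). The units nearest to the limit on the short arm, AT2TU003560 and AT2TU003570 inside and AT2TU003700 and AT2TU003910 outside, had no tested probe.

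**Figure D5:**
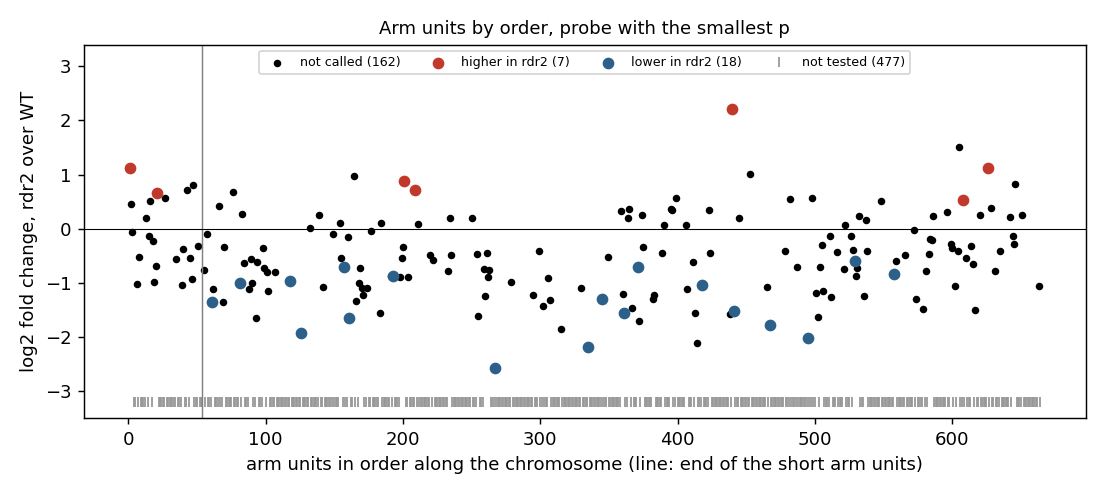
Arm units in their order along chromosome 2 on the horizontal axis and the log2 fold change of the probe with the smallest p, rdr2 over WT, on the vertical axis; red points are the 7 higher, blue the 18 lower and black the 162 units without a call, and ticks at the foot mark the 477 units not tested. The vertical line ends the 53 short-arm units, 2 of which rose and none of which fell.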

How the data were processed

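Members, lists and tests were chosen with earlier results of these data known. Per the file headers, the authors read the Cy3 channel of each array with Agilent Feature Extraction, version 10.7.3.1 for rdr2 replicate 3 and 10.5.1.1 for the other 5 arrays. The processed signal is a background-subtracted intensity, per the file headers. The deposited table holds log2 values, which a floor of 1 on the processed signal followed by quantile normalization gave back within 0.1 for 99.86% or more of each array's probes.

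From the 15013 probes per array, after removal of 536 control spots, each processed signal was divided by the 75th percentile of its array, taken over the 2369 probes that all 6 arrays measured well above background, and the log2 of this ratio was compared with limma 3.58.1 in R 4.3.3 (lmFit, eBayes, group as the sole term). A probe was tested if 1 group or both had it well above background on each of their 3 arrays (3345 probes), with Benjamini-Hochberg adjustment over them at 0.05. No uneven, outlying or saturated spot occurred among tested arm probes. The number of arrays limits the precision. The procedure was tested on simulated data with independent errors on each array. That simulation holds no correlation within slides, so it cannot cover the slides of this design.

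A unit was taken by its tested probe with the smallest p. Named units were called units with separate groups (the 15 largest changes in each direction), the 6 brightest in WT, units called in opposite directions, called neighbours, units at the 3 Mb limit and AT2TU038730. The mean of a unit's tested probes was an alternative. The files hold a median spot signal in place of the mean, so normexp (offset 50) used the median spot and background signals. The closing section gives the effect of the alternatives. Neither probe sequences nor a genome were used here.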

Additional observations from a re-analysis of the deposited data

How the results depend on the processing

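The 7 higher and 18 lower units (9 and 20 probes) were all lost with slide as a random block (0 probes and 0 units in each direction) and with arrays that shared a slide averaged (0 and 0). The correlation within a slide was 0.773. With no filter on dim probes, and with a filter of at least 1 array, 1 probe of 1 unit was higher and 0 lower, and none of the 25 units passed. Of the 25, normexp kept 2 rises and 0 falls. It gave 3 higher and 0 lower probes (2 and 0 units) and reversed the sign of 7 of the 25, among them AT2TU028490 (0.078), AT2TU034460 (0.11), AT2TU045150 (0.17), AT2TU052350 (0.10) and AT2TU053590 (0.14). The offset of 50 that normexp adds draws the changes of dim probes toward 0, so for dim units this setting cannot decide whether a change was present. The cause of the reversed signs was not tested. A single sign, of a unit outside the 15 largest falls, reversed with the percentile over all probes and with normexp plus quantile normalization. Normexp with quantile normalization, chosen after seeing the data, gave 13 and 8 probes (11 and 8 units). The percentile over all probes gave 7 and 1 (6 and 1 units), quantile normalization and the deposited table each 11 and 7 (9 and 7 units), and median scaling 8 and 13 (7 and 12 units). Requiring all 6 arrays gave 11 and 12 (8 and 10 units), with fewer probes tested, the unmoderated test 7 and 9 (6 and 9 units), and the unit mean 4 and 7 units. Leaving out 1 array gave 2 (without rdr2 replicate 1) to 17 (without rdr2 replicate 3) higher probes and 2 (without WT replicate 2) to 268 (without WT replicate 3) lower ones, or 2 to 14 and 2 to 234 units. With replicate number as a block, 1 probe was higher and 2 lower (1 and 2 units). Same-numbered samples deviated with correlations of -0.15 to -0.12, so the numbers were not taken as pairs. AT2TU000010 and AT2TU064150 passed under 15 of 20 alternatives, AT2TU027780 under 12, and RDR2 under 20 of 20 (largest adjusted p 0.0305). Few arrays and dim signals limit what could be measured.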
